A study of Mus musculus with 37 samples.

Results

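The 100 largest clonotypes of each mouse are the 100 T cell receptor beta (TRB) sequences with the most reads in its lymph node library. In each of the 37 libraries the listed sequences were ordered by deposited clone count, a count of reads, and ties were broken by the alphabetical order of the nucleotide CDR3. This gave 3700 of the 1704980 clonotypes listed over all libraries. The members were chosen by reads, so their reads are described here and not tested. V and J segments, CDR3 length and residues, sharing and similar sequences were compared with the other 1701280 clonotypes of the same mice. A clonotype is 1 listed nucleotide sequence, and a receptor is a TRBV segment, a TRBJ segment and a CDR3 in amino acids, which several nucleotide sequences can encode.

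Lymph node genomic DNA of 37 mice served as template to amplify and sequence rearranged TRB genes, with 1 library per mouse. At d105 there were 6 mice labelled PLX+PTX+aPD-1_R, 4 labelled PLX+PTX+aPD-1_NR, 6 labelled PLX+PTX, 2 labelled PTX and 5 labelled WTNT. The d95 mice were 5 with the R label, 3 with NR, and 3 each with PLX+PTX and PTX. The WTNT mice had the genotype FVBN and all others MMTV-PyMT, a transgene that drives polyoma middle T antigen from a mammary tumor virus promoter and gives mammary tumors. The labels spell out neither R and NR nor WTNT, and the treatments are described for MMTV-PyMT females. PLX3397 (pexidartinib), an inhibitor of the macrophage receptor CSF1R, was fed at 40 mg/kg per day from an age of 80 days, and PTX was injected at 10 mg/kg every 5 days from 85 days. The antibody against PD-1, an inhibitory receptor of T cells, or an isotype control antibody was given from 87 days as 1.0 mg and then 0.5 mg every 5 days. The tables hold rearranged TRB DNA alone, so the labelled tissue could not be checked against markers of other cells.

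A TRB gene is made in each developing T cell by joining 1 of many V segments, a D segment and a J segment. Enzymes trim the segment ends and add bases at the joints that no segment encodes, and the joint lies in the CDR3, the loop that meets the peptide held by an MHC molecule. Rearrangements with few added bases arise again and again, in different T cells and in different animals, and receptors found in many animals are called public. A clone that divides carries its sequence into all of its daughters, so both repeated rearrangement and cell division can bring a sequence to many copies. In bulk DNA, more cells with a sequence and more efficient amplification of it cannot be told apart.

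The receptors below were in the 100 largest of the most mice, and they are shown for that reason. They do not stand for all members, since 2391 of the 2746 distinct member receptors were members in 1 mouse. Each CDR3 runs 5′ to 3′, and capitals mark the bases between the end of the V alignment and the start of the J alignment, where D bases and added bases lie. In a sequence without capitals the V and J alignments meet or overlap, and bases in the overlap may differ between forms.
TRBV4 TRBJ2-7 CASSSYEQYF, form 1: tgtgccagcagctcctatgagcagtacttc
TRBV4 TRBJ2-7 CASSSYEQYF, form 2: tgtgccagcagctcatatgagcagtacttc
TRBV4 TRBJ2-7 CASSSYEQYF, form 3: tgtgccagcagctcgtatgagcagtacttc
TRBV4 TRBJ2-7 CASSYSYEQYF, form 1: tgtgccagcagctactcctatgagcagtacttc
TRBV4 TRBJ2-7 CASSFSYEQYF, form 1: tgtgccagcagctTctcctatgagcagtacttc
TRBV4 TRBJ1-6 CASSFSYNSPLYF: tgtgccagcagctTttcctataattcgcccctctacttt
TRBV2 TRBJ2-5 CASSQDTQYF: tgtgccagcagccaagacacccagtacttt
TRBV2 TRBJ2-3 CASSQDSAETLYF: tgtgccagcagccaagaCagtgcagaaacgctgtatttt
TRBV24 TRBJ2-7 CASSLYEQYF, form 1: tgtgccagcagtctgtatgagcagtacttc
TRBV5 TRBJ2-7 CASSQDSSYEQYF, form 1: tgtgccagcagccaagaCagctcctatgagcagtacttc
TRBV19 TRBJ2-7 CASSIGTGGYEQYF, form 1: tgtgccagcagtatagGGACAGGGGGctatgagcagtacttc
TRBV19 TRBJ2-7 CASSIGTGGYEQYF, form 2: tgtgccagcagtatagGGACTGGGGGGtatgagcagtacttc
In 8 of these 9 receptors the commonest member form had at most 1 base between V and J, and no D segment was assigned to it. The exception was the TRBV19 receptor, whose commonest form had 10 such bases from TRBD1, and whose next form, with 11 bases from TRBD2, encoded the same residues. Over all members of the mean mouse, 6.96 bases lay between V and J, and no D was assigned in 40.6%.

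The receptors below use TRBV13 segments, which belong to the stretch of TRBV genes known to be deleted in FVB/N mice, and they are shown because they were members all the same.
TRBV13-2 TRBJ2-5 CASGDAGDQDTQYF: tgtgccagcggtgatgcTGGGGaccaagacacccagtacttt
TRBV13-3 TRBJ2-4 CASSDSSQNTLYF: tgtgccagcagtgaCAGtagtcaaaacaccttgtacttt
TRBV13-1 TRBJ1-2 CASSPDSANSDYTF: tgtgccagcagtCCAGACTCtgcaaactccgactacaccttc
The next sequences led the library in which a single clonotype held the highest percent of reads in its group. They are shown as examples of large clonotypes that are not among the 10 receptors in most mice, and their receptors were found in 0 to 25 other libraries.
TRBV26 TRBJ1-1 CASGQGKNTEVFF: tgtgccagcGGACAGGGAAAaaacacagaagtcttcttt
TRBV26 TRBJ1-2 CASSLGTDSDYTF: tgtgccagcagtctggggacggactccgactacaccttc
TRBV1 TRBJ1-2 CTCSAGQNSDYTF: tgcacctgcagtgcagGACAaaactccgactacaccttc
TRBV1 TRBJ1-1: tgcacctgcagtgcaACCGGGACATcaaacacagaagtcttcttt
TRBV19 TRBJ2-7 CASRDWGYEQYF: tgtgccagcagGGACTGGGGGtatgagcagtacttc
TRBV19 TRBJ2-7 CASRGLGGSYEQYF: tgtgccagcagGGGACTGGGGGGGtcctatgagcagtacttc
The last set was found in exactly 2 of the 37 libraries and in the 100 largest of both.
TRBV19 TRBJ2-3: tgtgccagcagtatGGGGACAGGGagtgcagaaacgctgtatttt
TRBV24 TRBJ2-4 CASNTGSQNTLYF: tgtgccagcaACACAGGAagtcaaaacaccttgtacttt
TRBV2 TRBJ2-3 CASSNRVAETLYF: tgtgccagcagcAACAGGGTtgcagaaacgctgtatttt
TRBV24 TRBJ2-3: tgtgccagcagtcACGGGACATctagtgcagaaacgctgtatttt

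Libraries stood apart in depth and in shared sequences. Reads per library ran from 1090573 to 2831566 at d105, with a median of 1669178, and from 90648 to 917752 at d95, with a median of 453920, so day and depth cannot be told apart. The lowest depth, 90648 reads over 2470 clonotypes, belonged to replicate 1 of the d95 NR group, where the 100 largest held 13.8% of reads. Among the 666 pairs of libraries, 397 shared no member sequence that was absent from the other 35 libraries, and 4 pairs shared more than 8. These were d105 PLX+PTX replicates 1 and 2 with 30 such sequences, d105 WTNT replicates 2 and 5 with 28, d95 PLX+PTX+aPD-1_R replicate 3 and d95 PLX+PTX+aPD-1_NR replicate 1 with 13, and d95 PLX+PTX+aPD-1_R replicate 5 and d95 PLX+PTX replicate 1 with 11. The WTNT pair had 34 nucleotide sequences in both sets of 100, against a median of 5 over all pairs and 17 in the next pair. Examples are the TRBV19 sequence of the last set above, at ranks 2 and 1 of these WTNT libraries with 2194 and 1464 reads, and the TRBV24 TRBJ2-4 sequence at ranks 4 and 10. In the PLX+PTX pair 27 of the 30 were members of replicate 1 alone, and a median of 138 reads stood in the library where they were not members. Where these sequences came from was not tested, and sharing is therefore given with and without these 8 libraries.

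The 100 largest held between 1.57% and 13.8% of the reads of their library, with a median of 2.59%, while they made up 0.109% to 4.05% of its clonotypes. The median member had 72 to 596 reads, and the median other clonotype 12 to 30. Rank 100 lay in a dense part of the ranking: the 100th clonotype had 65 to 416 reads (median 163) and the next clonotype 65 to 415 (median 162), and in 19 of 37 libraries both had the same reads. The largest clonotype held between 0.067% and 0.649% of the reads. The deposited normalized clone count multiplies reads by a factor fixed for each V-J pair, and the median factor was 0.958 ± 0.184 (SD, n = 37) among members and 1.35 ± 0.111 among the others. Ranking by that normalized count kept 16.1 of the 100 members on average, with a range of 5 to 27. Results that hinge on the ranking are given both ways.

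Of the 3700 members, 35% were of receptors that were members in at least 2 mice. TRBV4 TRBJ2-7 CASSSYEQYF was a member in 30 of 37 mice and was listed in 36 libraries, with 118 to 699 reads per 1000000 reads of the library. It was a member in 22 of 23 mice at d105, the exception being a PTX mouse, and in 8 of 14 at d95, where it was in the 100 largest of none of the 3 PTX mice. It was encoded by 13 nucleotide forms over all libraries, of which 4 reached the 100 largest of some mouse. Its relatives with 1 more residue, TRBV4 TRBJ2-7 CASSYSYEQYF and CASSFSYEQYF, were members in 23 and 22 mice and were listed in 31 libraries each. TRBV2 TRBJ2-5 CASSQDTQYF was a member in 19 mice, TRBV24 TRBJ2-7 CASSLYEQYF and TRBV5 TRBJ2-7 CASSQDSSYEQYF in 17 each, TRBV4 TRBJ1-6 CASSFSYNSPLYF in 16 and TRBV2 TRBJ2-3 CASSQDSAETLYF in 15. TRBV19 TRBJ2-7 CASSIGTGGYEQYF was listed in all 37 libraries through 26 nucleotide forms and was a member in 17, with 1.96 to 1533 reads per 1000000. The 3700 members were 2746 distinct receptors, of which 2391 were members in 1 mouse, 355 in at least 2, 66 in at least 5 and 16 in at least 10.

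Receptors of the deleted TRBV13 segments were members at d105 alone. These 3 receptors gave 29 member clonotypes in 19 of the 23 d105 libraries and 0 in the 14 d95 libraries. TRBV13-2 TRBJ2-5 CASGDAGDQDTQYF was a member in 19 mice, among them 5 of 5 WTNT, 4 of 4 NR, 5 of 6 R, 3 of 6 PLX+PTX and 2 of 2 PTX mice. It was the largest clonotype of 7 d105 libraries, among them d105 PLX+PTX+aPD-1_R replicate 3 with 12224 reads (0.499%), d105 PTX replicate 2 with 5982 reads (0.549%) and d105 WTNT replicate 4 with 9580 reads (0.649%). Its reads spanned a wide range within a group, from 152 to 6494 per 1000000 in the WTNT mice and from 85.9 to 4990 in the d105 R mice. At d95 it was listed in 5 of 14 libraries, with 2 to 52 reads, from 4.21 to 574 per 1000000. The highest d95 value was in the NR group, from 52 reads in replicate 1, the library of lowest depth. The 100th clonotype of that library had 103 reads. Membership is a cut on rank, and the reads per 1000000 it takes differ between libraries. The value of 574 lay above the d105 medians of the R (219) and PLX+PTX (191) mice. It lay below the medians of the other d105 groups (808 to 3567). With unlisted libraries counted as 0, the median was 64.8 in the d95 NR mice and 0 in the other d95 groups. All 19 member clonotypes carried 1 and the same nucleotide sequence, and 3 forms were listed over all libraries. TRBV13-3 TRBJ2-4 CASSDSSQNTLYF was a member in 6 of the 17 libraries that listed it, and TRBV13-1 TRBJ1-2 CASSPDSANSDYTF in 4 of 21, each with 1 nucleotide form. The 3 receptors have 13 or 14 residues. How a segment deleted in FVB/N came to be listed in the FVBN libraries was not tested, and without these segments the sharing and length differences described next were 28.1 percentage points and -0.999 residues.

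The receptors of the leading clonotypes of the remaining groups were found in 0 to 25 other libraries. TRBV26 TRBJ1-1 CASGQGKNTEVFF, with 4955 reads (0.262%) in d105 PLX+PTX replicate 4, was in no other library. TRBV26 TRBJ1-2 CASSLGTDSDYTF, with 4114 reads (0.232%) in d105 PLX+PTX+aPD-1_NR replicate 1, was in 1 other library, through another nucleotide sequence. At d95, the TRBV1 TRBJ1-1 sequence shown above led R replicate 5 with 1346 reads (0.266%). The sequence itself was in 5 other libraries and its receptor in 8. On the same day the receptor TRBV1 TRBJ1-2 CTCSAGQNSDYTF led PLX+PTX replicate 2 with 439 reads (0.127%) and was in 10 other libraries. TRBV19 TRBJ2-7 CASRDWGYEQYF led NR replicate 1 with 238 reads and was in 25 other libraries, and TRBV19 TRBJ2-7 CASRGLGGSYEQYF led PTX replicate 2 with 505 reads and was in 7.

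Members were found in other mice more often than the other clonotypes. In the mean mouse, 81.0% ± 7.87 (SD, n = 37) of the 100 largest had their receptor in at least 1 of the other 36 libraries, against 52.7% ± 1.98 of the other clonotypes. Members ranged from 63% in d95 PLX+PTX+aPD-1_NR replicate 1 to 100% in d105 WTNT replicate 2, and in 37 of 37 mice they lay above the others of the same library. The mean difference was 28.3 percentage points ± 8.57 (permutation test by sign flips over mice, 2-sided, p = 1e-05, adjusted p = 1e-05 over 6 measures, the smallest that 100000 resamples give). The difference widened with the number of libraries asked for: 45.8% of members and 14.5% of the others were found in at least 10 other libraries. Reads carried over between libraries keep their nucleotide sequence, so sharing was also counted through another nucleotide form alone. It was 74.5% for members and 49.5% for the others, a difference of 25.0 points ± 8.01 in the same direction in 37 of 37 mice (permutation, adjusted p = 1e-05). Forms 1 base apart were counted too, so read errors of carried-over reads were not kept out. Looked up in libraries of the other day alone, sharing through any form was 67.9% for members and 37.8% for the others. Without the 8 libraries that shared sequences in pairs, the difference was 27.2 points ± 6.41 (n = 29).

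**Figure D1:**
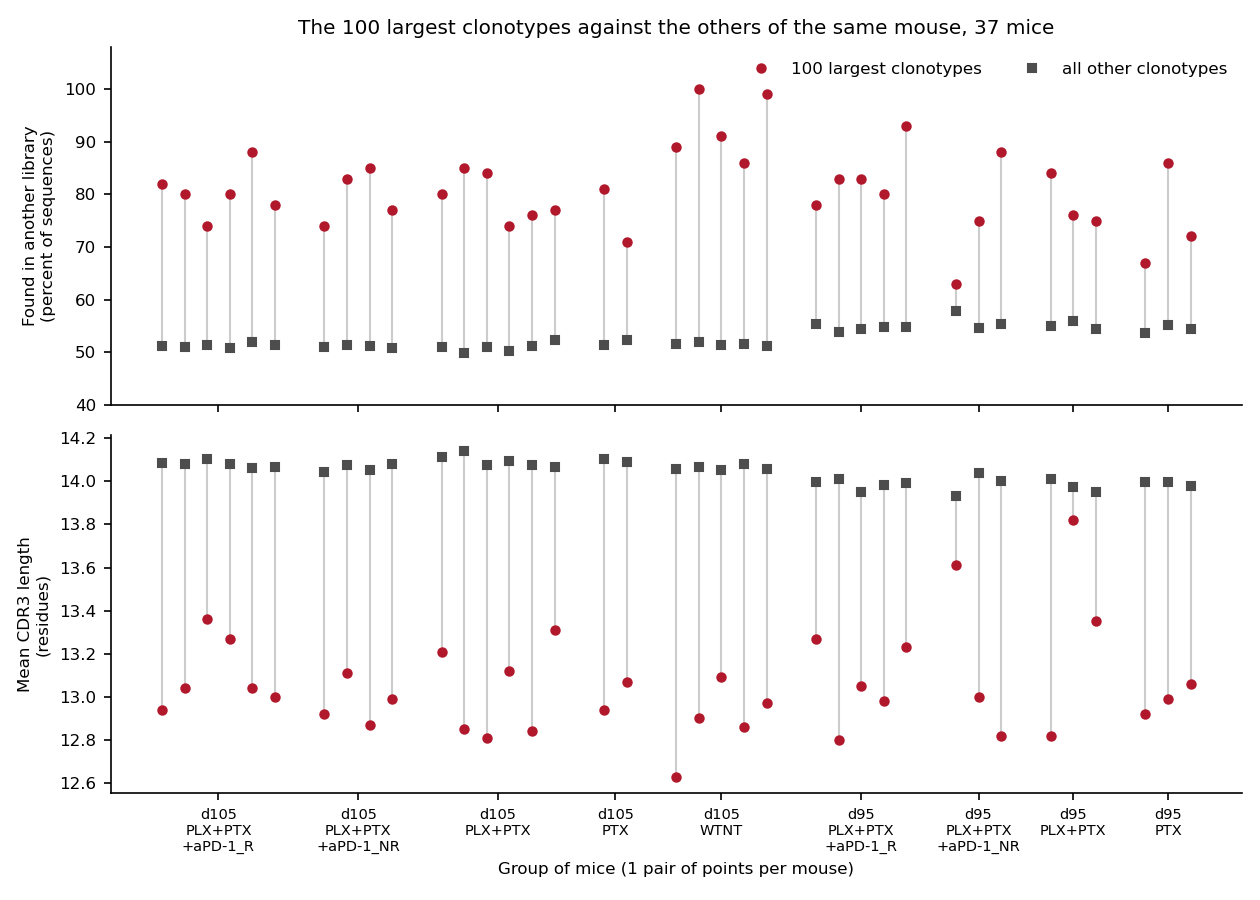
Percent of clonotypes whose receptor was listed in another library (upper axis, percent) and mean CDR3 length (lower axis, residues) for the 100 largest clonotypes (red circles) and all others (grey squares) of each of 37 mice, by group. In every mouse the members lie above the others for sharing and below them for length, and the 5 d105 WTNT mice hold member values of 86% to 100% for sharing. Neither axis starts at 0.

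Beyond rank 100, sharing was lower in each wider class of ranks. It was 78.4% ± 12.6 at ranks 1 to 10, 81.3% ± 7.90 at ranks 11 to 100, 69.7% ± 5.30 from there to rank 1000, 60.0% ± 1.31 from there to rank 10000 and 48.4% ± 2.72 above it. Against the clonotypes between rank 100 and rank 1000 alone, members were still 11.3 points ± 7.55 higher (34 of 37 mice, permutation p = 1e-05). Places of member receptors in the other libraries were counted once for each mouse in which the receptor was a member. Receptors that were members in many mice therefore weigh more, and the same shares were not computed for the other clonotypes. Of 42425 occurrences of member receptors in other libraries, 17.2% were in the 100 largest there, 41.6% within rank 1000 and 62.0% in the upper 10% of clonotypes, while 4.49% lay in the lower 50%.

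**Figure D2:**
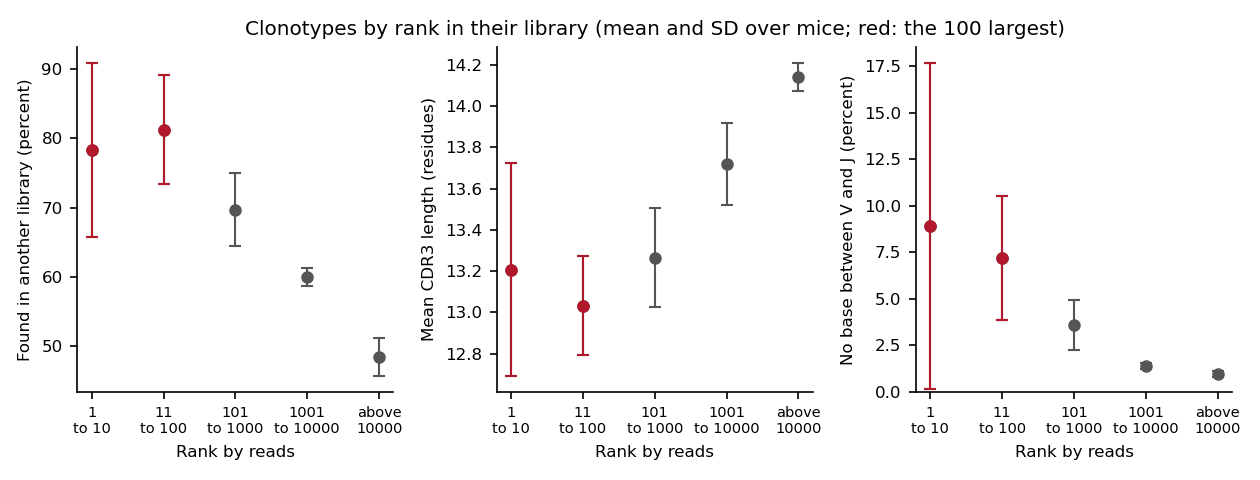
Percent of clonotypes found in another library, mean CDR3 length in residues and percent with no base between V and J, by rank in the library (mean and SD over 37 mice, 36 above rank 10000). Red points are the 100 largest. Sharing goes from 81.3% at ranks 11 to 100 to 48.4% above rank 10000, and mean length from 13.0 to 14.1 residues.

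The CDR3 of the members was about 1 residue shorter, with fewer bases between V and J. Mean length was 13.05 residues ± 0.235 (SD, n = 37) among members and 14.04 ± 0.0512 among the others, a difference of -0.993 ± 0.256 with members shorter in 37 of 37 mice (permutation test by sign flips, adjusted p = 1e-05). Lengths of 10, 11 and 12 residues made up 4.30%, 12.4% and 15.4% of members and 0.552%, 3.06% and 8.58% of the others. The commonest length was 13 residues among members (28.5%) and 14 among the others (30.3%). Members had 6.96 ± 0.715 bases between V and J and the others 10.0 ± 0.225. No D segment was assigned in 40.6% ± 5.34 of members and 22.3% ± 1.19 of the others. No base at all lay between V and J in 7.35% ± 3.12 of members, 272 of 3700, and in 1.08% ± 0.137 of the others. Each of these 3 differences had the same direction in 37 of 37 mice (permutation, adjusted p = 1e-05 over 3). The length difference was smallest in d95 PLX+PTX replicate 2, whose members averaged 13.82 residues (-0.153), and in d95 PLX+PTX+aPD-1_NR replicate 1 with 13.61 (-0.322).

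Length, joint and sharing went together among the members when these were pooled over mice. A receptor that was a member in several mice counts once for each of its member clonotypes. TRBV4 TRBJ2-7 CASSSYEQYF alone gave 36 member clonotypes, all with 0 bases between V and J and in the last class below. The 703 members (19.0%) found in no other library had a mean length of 13.7 residues with 10.3 bases between V and J, and 25.0% had no D. The 1302 members in 1 to 9 other libraries had 13.2 residues and 7.79 bases. The 1262 in 10 to 29 others had 12.8 residues and 5.36 bases. The 433 in at least 30 others had 12.2 residues and 3.71 bases, 67.7% had no D, and 33.5% had no base between V and J. Median reads were 220, 222, 211 and 235 in these 4 classes. When the other clonotypes were weighted to the V-J pairs and lengths of the members, the sharing difference was 22.7 points ± 7.84, and 1.77 bases fewer lay between V and J (37 of 37 mice each, permutation p = 1e-05).

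**Figure D3:**
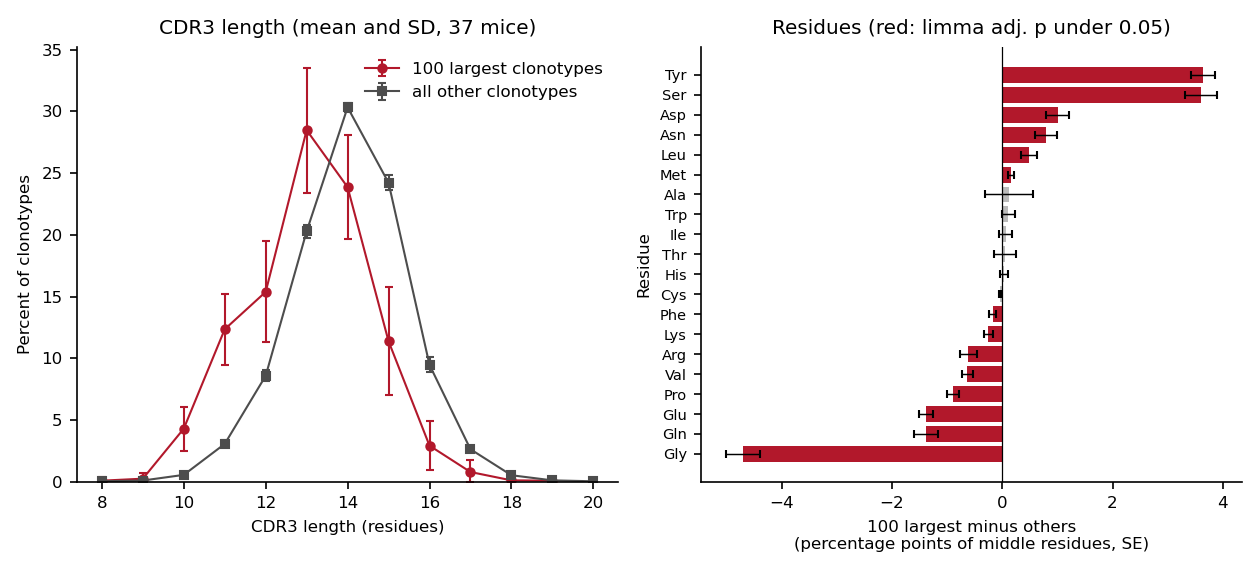
Left: percent of clonotypes by CDR3 length (8 to 20 residues) for the 100 largest (red) and the others (grey), mean and SD over 37 mice. Right: difference in percentage points of each residue in the middle of the CDR3, 100 largest minus others, with SE; red bars passed limma at an adjusted p under 0.05. The members peak at 13 residues and the others at 14, and Tyr and Ser stand highest and Gly lowest.

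Similar sequences surrounded the members. A neighbour is another CDR3 of the same library with the same V, J and length and 1 residue changed. Members had a neighbour in 75.0% ± 14.3 of cases and the others in 57.6% ± 9.87, a difference of 17.4 points ± 6.56 in 36 of 37 mice. Read errors of a large clonotype lie 1 base away, and counting neighbours at least 2 bases away alone gave 73.4% and 50.3%, a difference of 23.1 points ± 6.15 in 37 of 37 mice. The member's receptor was also listed in the same library through another nucleotide sequence at least 2 bases away in 12.3% ± 5.93 of cases, against 5.96% ± 2.23 for the others, in 35 of 37 mice. All 3 had an adjusted p of 1e-05 (permutation test by sign flips). The level differed between the days, which also differed in depth. Members with a neighbour at least 2 bases away made up 80.1% ± 7.80 at d105 (n = 23) and 62.3% ± 15.7 at d95 (n = 14), and 17% in d95 PLX+PTX+aPD-1_NR replicate 1. After thinning to 200000 reads the difference was 19.4 points ± 6.51 (n = 36). Of the 100 members, 11.3 ± 4.60 had another member as neighbour, in 3 to 21 pairs per mouse. No value to compare this with was computed. With members pooled over mice, 34.7% of those found in no other library had a neighbour at least 2 bases away, and 97% of those in at least 30 others.

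V and J segments differed between members and the others in most cases tested. Of 24 segments, 19 (79.2%) passed limma at an adjusted p under 0.05, 5 higher and 14 lower, on log2 of percent of clonotypes plus 1. TRBV26 made up 12.6% ± 5.09 of members and 4.72% ± 0.510 of the others (log2 difference 1.14 ± 0.09 SE, adjusted p = 4.99e-15, higher in 36 of 37 mice). TRBJ2-7, whose germline part of the CDR3 holds Ser, Tyr and Glu, made up 37.5% ± 6.92 and 22.2% ± 0.891 (0.71 ± 0.05, adjusted p = 1.02e-15, 36 mice). TRBJ1-2 stood at 9.78% and 3.87%, TRBJ1-6 at 6.84% and 3.87%, and TRBV19 at 14.5% and 8.65%. The lowest was TRBV5, at 3.38% ± 2.11 against 10.7% ± 0.609 (-1.63 ± 0.13, adjusted p = 1.27e-14, lower in 37 of 37 mice). TRBV20 (0.027% against 1.35%) and TRBV3 (7.76% against 13.5%) were lower as well, as were TRBV2 (8.41% against 11.9%) and, on the log scale, TRBV29 (6.14% against 6.49%, lower in 20 of 37 mice). Among J segments TRBJ1-1, TRBJ1-3, TRBJ1-4, TRBJ2-3 and TRBJ2-4 were lower by 0.69 to 1.52 on the log2 scale, and no member used TRBJ1-5, which made up 1.54% of the others. TRBJ2-1, TRBJ2-2 and TRBJ2-5 were lower by smaller differences. TRBV1, TRBV4, TRBV23, TRBV24 and TRBV30 did not pass. TRBV1 (16.4% ± 11.5 against 16.04%) and TRBV4 (10.8% ± 5.25 against 8.20%) varied widely between mice.

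**Figure D4:**
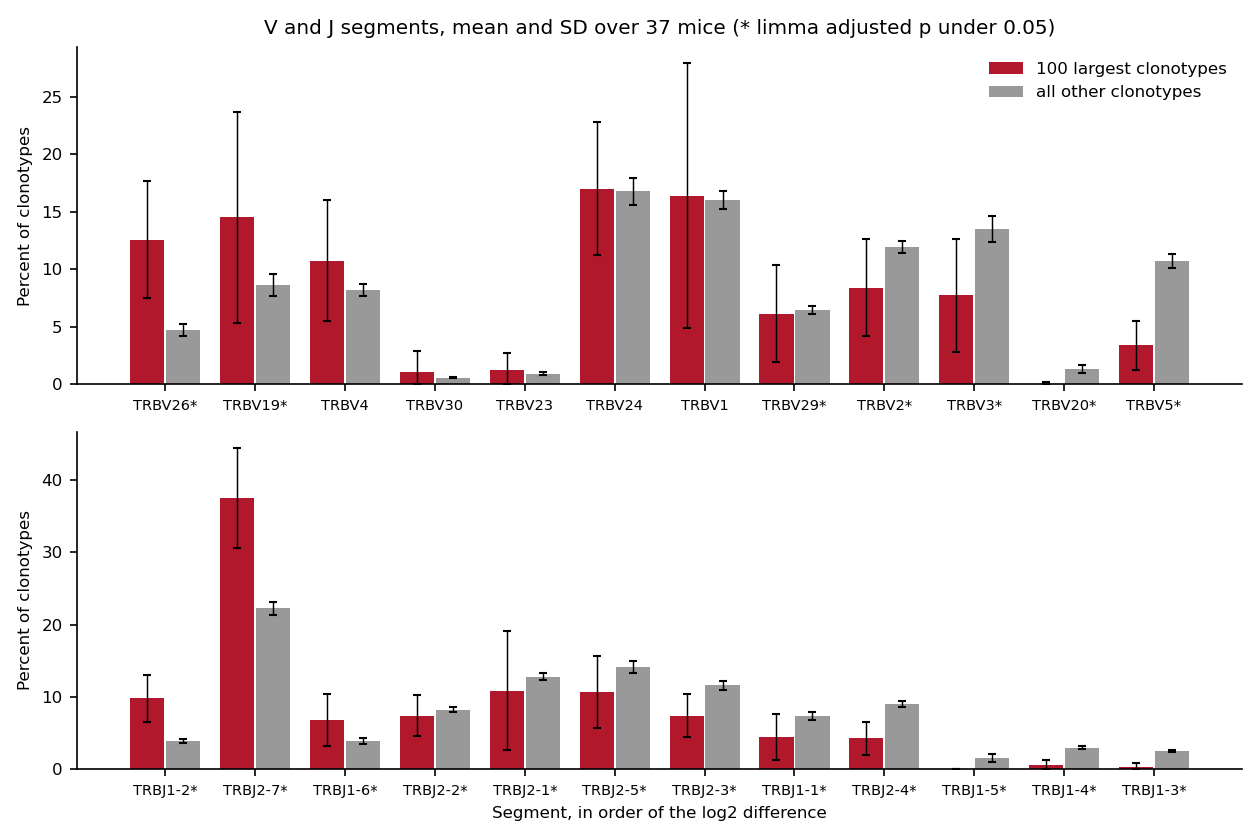
Percent of clonotypes with each TRBV (upper) and TRBJ (lower) segment among the 100 largest (red) and the others (grey), mean and SD over 37 mice, in order of the log2 difference. Stars mark segments past limma at an adjusted p under 0.05. TRBV26 and TRBJ1-2 stand at the higher end and TRBV5 and TRBJ1-3 at the lower end, by rank on reads.

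The segment result depended on the ranking, since the V-J factor enters it. With the 100 largest taken by normalized clone count, TRBV26 (1.24) and TRBJ2-7 (1.40) stayed higher and TRBV3 (-2.34), TRBV2 (-2.54), TRBJ1-1 (-2.51), TRBJ1-3 and TRBJ1-4 stayed lower. TRBV19 turned to -3.00, TRBJ1-2 to -2.06 and TRBJ1-6 to -1.94, and TRBV5 (-0.38, limma adjusted p = 0.0916) no longer passed. Against the clonotypes between rank 100 and rank 1000 of the same libraries, 9 segments passed, TRBJ2-7 stayed higher (0.22), and TRBV26 (-0.39) and TRBJ1-2 (-0.37) were lower. Of 61 V-J pairs, 38 (62.3%) passed limma, 13 higher and 25 lower. TRBV26 TRBJ2-7 led, with 5.46% of members and 0.983% of the others (1.61, higher in 37 of 37 mice, factor 2.52), and TRBV26 TRBJ1-2 followed (1.43, factor 0.942). TRBV19 TRBJ2-7 made up 8.76% and 1.94% (1.40, factor 0.661) and TRBV4 TRBJ2-7 6.46% and 2.07% (1.10, factor 6.93). TRBV1 TRBJ2-1 (0.71, factor 0.477) and TRBV4 TRBJ1-2 (0.67, factor 0.939) were higher too. By normalized count TRBV4 TRBJ2-7 stayed higher (4.25) and TRBV26 TRBJ2-7 as well (0.60), while TRBV19 TRBJ2-7 (-1.498) and TRBV1 TRBJ2-1 (-1.67) were lower. The 6 lowest named pairs, TRBV1 TRBJ2-7, TRBV2 TRBJ2-7, TRBV5 TRBJ2-1, TRBV3 TRBJ2-1, TRBV3 TRBJ2-5 and TRBV3 TRBJ2-3, had factors from 3.96 to 13.8 and stayed lower by normalized count. Length and sharing kept their direction under the normalized ranking, at -1.13 ± 0.227 residues and 22.1 points ± 7.84 (37 of 37 mice each, permutation adjusted p = 1e-05).

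Residues were compared in the middle of the CDR3, after 4 residues were dropped at each end. Of 20 residues, 14 (70%) passed limma, 6 higher and 8 lower among members. Tyr made up 8.67% ± 1.41 of these positions in members and 5.03% ± 0.189 in the others (difference 3.64 points ± 0.215 SE, adjusted p = 7.15e-18, higher in 37 of 37 mice). Ser stood at 10.4% ± 1.74 and 6.80% ± 0.175 (3.61 points, 35 mice), and Asp, Asn, Leu and Met were higher by 1.01, 0.793, 0.488 and 0.156 points. Gly, which the D segments encode in runs, stood at 18.2% ± 1.78 and 22.9% ± 0.381 (-4.70 points ± 0.310, adjusted p = 1.43e-16, lower in 37 of 37 mice). Gln (-1.39), Glu (-1.38), Pro (-0.892), Val (-0.636), Arg (-0.615), Lys and Phe were lower. With the others weighted to the V-J pairs of the members, Tyr (1.74) and Ser (1.87) were higher and Gly (-5.19) lower, Gln turned to 0.705 and Leu to -0.0853, and Glu (-0.0435, adjusted p = 0.639) no longer passed. A shorter CDR3 leaves fewer middle positions. With length weighted as well, Gly stood at -3.74, Tyr at 1.69 and Ser at 1.97. Glu (-0.366, limma adjusted p = 8.97e-05) and Trp (0.365, limma adjusted p = 0.00209) then passed. Gln (0.241, limma adjusted p = 0.0885) and Leu (-0.0328) did not. By normalized ranking Asn turned to -3.52, Met to -0.109, Phe from -0.175 to 0.538 (limma adjusted p = 1.41e-07), Arg to 0.290 and Lys to 0.0477, and Gln, Glu and Val no longer passed (adjusted p = 0.398, 0.398 and 0.1). Against the clonotypes between rank 100 and rank 1000, Tyr was higher by 1.58 points and Gly lower (-0.762, limma adjusted p = 0.0279), while Ser (0.307, adjusted p = 0.392), Glu (-0.110) and Pro (-0.00124) no longer passed. By class, aromatic residues made up 11.9% of members' positions and 8.31% of the others' (37 of 37 mice), basic residues 6.62% and 7.45%, and aliphatic residues 9.49% and 9.42%. Where a D segment was assigned, it was TRBD1 in 64.0% of members and 54.2% of the others.

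No contrast between treatments passed for sharing, length or the similarity measures. At d105, members were shared in 80.3% ± 4.63 of cases in the 6 R mice, 79.8% ± 5.12 in the 4 NR mice, 79.3% ± 4.46 in the 6 PLX+PTX mice and 71% and 81% in the 2 PTX mice. Mean lengths were 13.11 ± 0.167, 12.97 ± 0.104, 13.02 ± 0.217 and 13.01 ± 0.0919 residues in the same order. The question of these contrasts is whether the response suffix, the antibody or PLX3397 goes with a difference in the largest clonotypes, and comparisons on 1 day share groups. Over 6 measures and 8 contrasts, 2 of 48 tests (4.17%) passed an adjusted p of 0.05, and neither was a contrast of treatments. R minus NR in the sharing difference was 0.342 points at d105 (exact permutation p = 0.924) and 9.35 points at d95 (exact permutation p = 0.232, 5 against 3 mice). With 3 PLX+PTX and 3 PTX mice at d95 there are 20 regroupings, so an exact 2-sided p cannot go below 0.1. The 6 PLX+PTX and 2 PTX mice of d105 give 28. Nucleotide forms there had the lowest p these allow (4.81 points, exact permutation p = 0.0357, adjusted p = 0.343). In all treatment contrasts but d105 all 3 agents minus PLX+PTX (8008), regroupings numbered 20 to 210. With so few, 1 measure alone could not pass over 48 tests, so these contrasts do not show that groups were equal. Between the days, the sharing difference was 4.56 points higher at d105 (permutation adjusted p = 0.454), and with the 200 largest clonotypes it was 9.76 points higher (permutation adjusted p = 0.00144) and the length difference -0.344 residues (permutation adjusted p = 0.00192).

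Both calls set the MMTV-PyMT mice of d105 against the FVBN mice labelled WTNT. The members of the 5 WTNT mice were shared in 89, 100, 91, 86 and 99% of cases, and those of the 18 MMTV-PyMT mice in 71 to 88%, with a mean of 79.4% ± 4.63 against 93% ± 6.20. The groups overlapped between 86% and 88%. The other clonotypes stood at 51.2% and 51.5%. The difference between members and others was 28.2 points ± 4.77 in MMTV-PyMT and 41.5 ± 6.16 in WTNT, 13.3 points lower in MMTV-PyMT mice (exact permutation test, 2-sided, p = 8.92e-05, adjusted p = 0.00428). Through another nucleotide form the values were 72.7% ± 6.32 and 84.0% ± 4.30 of members, a difference of -11.1 points (exact permutation p = 0.00137, adjusted p = 0.0328), and this second call was lost when any 1 of 12 libraries was left out (-12.7 to -9.99 points). WTNT replicates 2 and 5, at 100% and 99%, are the pair that shared 28 sequences found nowhere else. Without them the difference was -9.02 points (exact permutation p = 0.00376), and without them and looked up in d95 libraries alone -12.3 points (p = 0.0143, exact). Without all 8 libraries of the 4 pairs it was -9.52 (exact permutation, adjusted p = 0.0991), after thinning -10.2 (adjusted p = 0.118, exact) and by normalized ranking -3.51 (adjusted p = 0.516, exact). Bases between V and J numbered 6.23 ± 0.369 in WTNT members and 6.88 ± 0.562 in MMTV-PyMT members, which was not tested. A further nucleotide form in the same library was listed for 20% ± 5.05 and 13.6% ± 4.80 of members, and the difference did not pass (exact permutation p = 0.0153, adjusted p = 0.245). Reads per WTNT library were 1350579 to 1765833, within the range of the other d105 libraries. WTNT mice differed from the others in genotype and in treatment label, which cannot be told apart.

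The segment differences between members and the others varied with the day. Of 24 segments, 16 (66.7%) passed limma for d105 minus d95 in this difference, over the 4 treatments present on both days. At d105 the difference was higher in 11 and lower in 5. TRBV29 made up 8.67% ± 2.87 of members in the 18 d105 MMTV-PyMT mice, from 3% to 15%, and 2.36% ± 2.44 in the 14 d95 mice, from 0% to 7% (log2 difference of differences 2.03 ± 0.26 SE, adjusted p = 1.27e-07). TRBJ1-1 stood at 5.83% and 2.14% (1.61), TRBV3 at 9.33% and 5.57% (1.36), TRBV30 at 1.94% and 0.143% (1.26), TRBV4 at 12.3% and 6.64% (0.99) and TRBJ2-5 at 13.1% and 6.14% (0.97). TRBV5, TRBV2, TRBV23, TRBV26 and TRBJ1-2 were higher by 0.88, 0.82, 0.70, 0.50 and 0.45. TRBV19 was lower at d105, 9.33% ± 2.95 with a range of 5% to 14% against 22.7% ± 10.2 with a range of 0% to 38% (-0.92 ± 0.28, adjusted p = 0.00495). TRBV1 was lower as well, 10.9% ± 2.49 against 24.7% ± 15.3 (-0.90), and so were TRBJ1-6 (-0.78) and TRBJ2-1 (-0.78). TRBV20 passed at -0.25 (limma adjusted p = 0.0485) with 0.0556% and 0% of members and 1.45% and 1.10% of the others. Its call was lost when any single library was left out other than d105 R replicate 5, d105 PLX+PTX replicate 1, d95 R replicate 1 or 2, d95 NR replicate 3, d95 PLX+PTX replicate 1, or d95 PTX replicate 1 or 2. TRBV23 did not pass without d105 PTX replicate 2, nor TRBV26 without d105 PTX replicate 1, d95 NR replicate 1, d95 PLX+PTX replicate 2 or 3, or d95 PTX replicate 3. Among the other clonotypes TRBV29 made up 6.47% at d105 and 6.63% at d95, and TRBV19 8.20% and 9.12%. The median V-J factor of members was 1.05 ± 0.0881 at d105 and 0.810 ± 0.205 at d95. That of the other clonotypes differed by day as well, at 1.26 to 1.53 in the d105 libraries and 1.18 to 1.25 in those of d95. By normalized ranking 10 segments passed, and TRBV19 (0.36), TRBV1 (0.045), TRBJ1-6 (0.24), TRBJ2-1 (1.58) and TRBV4 (-1.02) had the opposite sign. Against the clonotypes between rank 100 and rank 1000, 3 segments passed.

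**Figure D5:**
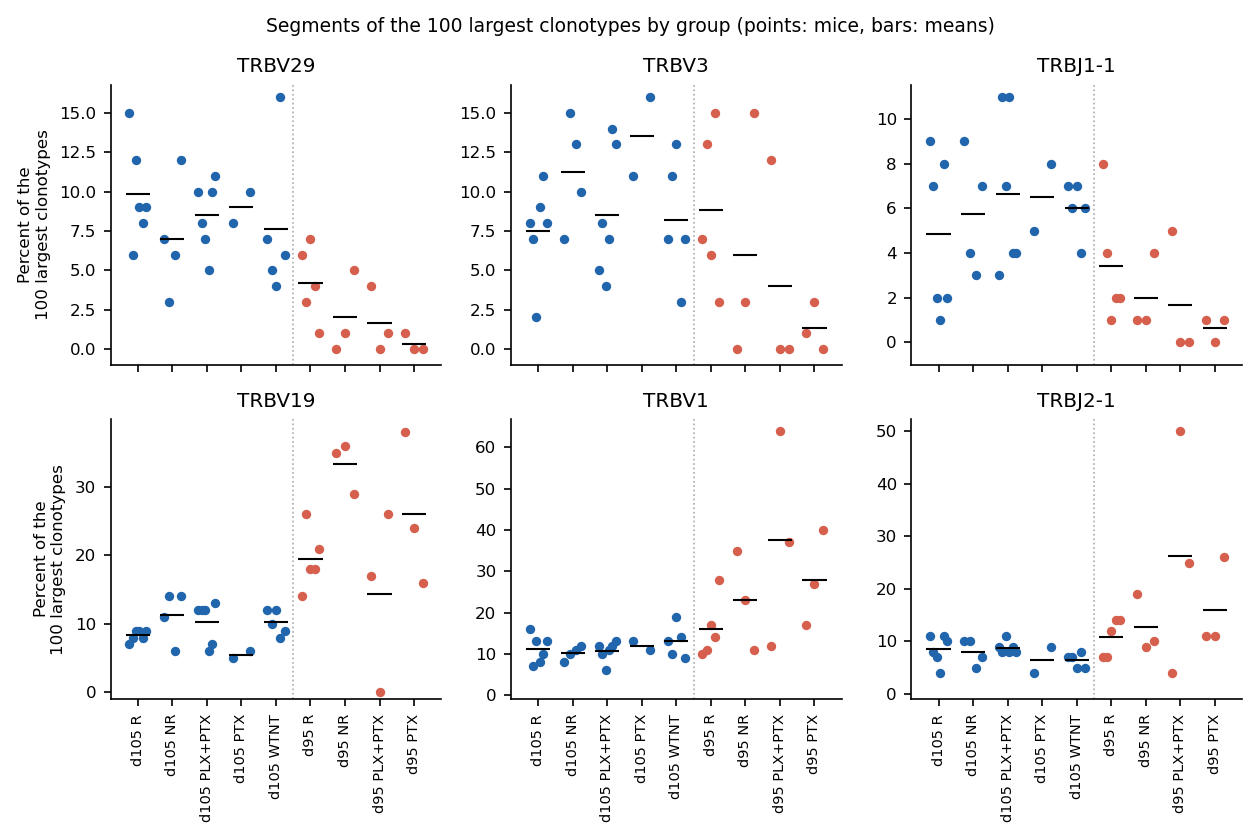
Percent of the 100 largest clonotypes with each of 6 segments, by group (d105 in blue, d95 in red, points are mice, bars are group means). R and NR are the mice with all 3 agents. TRBV29, TRBV3 and TRBJ1-1 are higher at d105, TRBV19, TRBV1 and TRBJ2-1 at d95, and d95 PLX+PTX has 1 mouse with 0% TRBV19 and 64% TRBV1.

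Between treatments, segments passed in 2 contrasts, and both rested on few mice. At d95, 3 segments (12.5%) were higher with all 3 agents than with PLX+PTX: TRBV19 (1.68), TRBV2 (1.32) and TRBV4 (1.22), each at a limma adjusted p of 0.02. These p-values use 1 spread per segment from all 9 groups, and with the days fitted separately 0 segments passed in this contrast. TRBV19 made up 17, 0 and 26% of members in the 3 PLX+PTX mice and 14 to 36% in the 8 mice with all 3 agents. The 0% belongs to PLX+PTX replicate 2, which also had 0% TRBV2 and 2% TRBV4, and without it 0 segments passed. Without PLX+PTX replicate 1, 12 passed. TRBV2 was also lost without d95 R replicate 3. At d105, TRBV30 (4.17% of segments) was lower with PLX+PTX, at 3, 2, 1, 2, 0 and 0%, than with PTX, at 5 and 8% (-1.93, limma adjusted p = 0.0341). These percentages are of the members alone, and compared on members alone TRBV30 did not pass. Without PLX+PTX replicate 3, 5 or 6 or either PTX mouse it did not pass. In d105 R minus NR, all 3 agents minus PLX+PTX and MMTV-PyMT minus WTNT, limma passed 0 of 24 segments (0%), with 1, 2 and 2 at an unadjusted p under 0.05, and edgeR passed 0 in each. In d95 R minus NR and PLX+PTX minus PTX limma and edgeR passed 0 (0%), with 1 each at an unadjusted p under 0.05 by limma. No interaction of a treatment contrast with day passed limma (0 of 24 in each of 3, with 0, 3 and 2 at an unadjusted p under 0.05).

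Overlap of the 100 largest between mice was compared within and between groups. At d105, 2 mice of a group had 8.79 receptors in common among their 100 largest and 2 mice of different groups 7.84 (difference 0.943, permutation test over mice, p = 0.0372, adjusted p = 0.0744 over 2 days). At d95 the values were 4.05 and 3.39 (permutation p = 0.159). The d105 difference passed when any single R library, NR replicate 3 or PLX+PTX replicate 3 or 6 was left out (up to 1.23), and that at d95 without PLX+PTX replicate 1 (1.12). Without the libraries of the 4 pairs, the d105 values were 7.65 and 7.60 (difference 0.0452, permutation p = 0.941, 19 mice). With the largest 1% of clonotypes in place of 100, the d105 difference was 7.71 (permutation adjusted p = 0.00196) and that at d95 2.28 (adjusted p = 0.0187, permutation), with the paired libraries included. Libraries listed 2470 to 91867 clonotypes, so the 1% sets differed in size, and the counts in common were not adjusted for it.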

How the data were processed

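The members and lists were chosen with earlier results of these data known. Per the file headers, the deposited tables list each clonotype with its segments, CDR3 and clone count (counts of reads, not normalized) and 2 scores that the authors made from it, the normalized and the nb clone count. Which aligner, caller and genome build were used is not given in the sources used here. Reads come from PCR, so counting limits cover counting error only. All 21 TRBV and 13 TRBJ names matched RefSeq symbols (GRCm38.p6).

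In each library, the 100 clonotypes with most reads were compared with the rest, each clonotype counted once. Segments and V-J pairs with a mean share of at least 0.5% were tested with limma 3.58.1 (R 4.3.3) on per-mouse differences of log2(percent + 1), residues on percentage points, and group contrasts in 1 fit of 9 groups. Single measures were tested by sign flips or exact permutation, 2-sided, with 100000 resamples where enumeration was too large. Benjamini-Hochberg adjustment was within each family, with a threshold of 0.05. Named were up to 10 segments, 6 V-J pairs and 6 residues per direction past the threshold, the leading clonotype per group, the 10 receptors in most mice, and receptors of the segments deleted in FVB/N. Alternatives included edgeR 4.0.16 and DESeq2 1.42.0 on clonotypes per segment, other set sizes and rankings, and thinning to 200000 reads, which left out 1 library. Names outside these limits that complete a count, and the measures of bases between V and J, were chosen after the values were seen. Tests were tried on simulated data.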

Additional observations from a re-analysis of the deposited data

Results flagged for a closer look

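In the d105 PLX+PTX group of 6 mice, replicate 1 lay far below the others in how much more often its members had a neighbour at least 2 bases away than the other clonotypes did. Its difference was 16.4 percentage points (76% of members against 59.6% of the others), while the remaining 5 mice lay between 22.8 and 25.98. Of 45 groups of values looked at in this way 1 was marked, and chance marks about 1 in 20. Replicate 1 is also the deeper library of the pair with replicate 2, and 27 of its members were found in these 2 libraries and in no other. Whether the 2 facts go together was not tested.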

How the results depend on the processing

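Length, sharing, neighbours and nucleotide forms kept direction and call under all settings run for them. Ranked by normalized clone count, TRBJ1-2 (-2.06), TRBJ1-6 (-1.94), TRBV19 (-3.00), TRBV19 TRBJ2-7 (-1.498), TRBV1 TRBJ2-1 (-1.67), Asn (-3.52), Met (-0.109), Phe (0.538), Arg (0.290) and Lys (0.0477) turned, and Gln, Glu and Val no longer passed. In the day contrast 10 segments passed and TRBV4 (-1.02), TRBV19 (0.36), TRBV1 (0.045), TRBJ1-6 (0.24) and TRBJ2-1 (1.58) turned. MMTV-PyMT minus WTNT then gave 1 segment, d95 PLX+PTX minus PTX 1, and d95 all 3 agents minus PLX+PTX 0 with TRBV4 at -0.070. MMTV-PyMT minus WTNT was -3.51 for sharing and -4.12 through another nucleotide form, and overlap was 0.913 at d105 (permutation adjusted p = 0.0416) and -0.016 at d95. Ranked by nb clone count, TRBJ1-2 (-1.46), TRBJ1-6 (-0.75), TRBV19 (-2.02), TRBV19 TRBJ2-7 (-1.01), TRBV1 TRBJ2-1 (-1.54), Asn (-2.56), Met (-0.108), Phe (0.616), Arg (0.257) and Lys (0.0231) turned, and Asp (0.376) and Val (-0.132) no longer passed. So did TRBV30 (-0.12), TRBV4 (-0.46), TRBV19 (0.68) and TRBJ2-1 (1.62) between days, d105 PLX+PTX minus PTX gave 2 and d95 all 3 agents minus PLX+PTX 0, and MMTV-PyMT minus WTNT was -8.23 and -6.44.

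Against the clonotypes between rank 100 and rank 1000, 9 segments, 12 pairs and 8 residues passed. TRBV26 (-0.39), TRBJ1-2 (-0.37), TRBJ1-6 (-0.048), TRBV5 (0.32), TRBJ1-4 (0.046), TRBV3 (0.060), TRBV2 (0.34), TRBV26 TRBJ2-7 (-0.13), TRBV26 TRBJ1-2 (-0.77), TRBV4 TRBJ1-2 (-0.12), Asn (-0.0041), Leu (-0.095) and Phe (0.109) turned, and Ser (0.307), Glu, Pro, Lys and Met no longer passed. The calls were 0 for d105 PLX+PTX minus PTX, 1 for MMTV-PyMT minus WTNT, 4 for d95 R minus NR, 0 for d95 all 3 agents minus PLX+PTX and 3 between days. Between days TRBV29 (-0.17), TRBJ1-1 (-0.015), TRBV30 (-0.31), TRBV4 (-0.071), TRBJ2-5 (-0.084), TRBV2 (-0.015), TRBV23 (-1.32), TRBV26 (-0.32), TRBV1 (0.15) and TRBJ1-6 (0.44) turned, and sharing through another form in MMTV-PyMT minus WTNT was -8.87. With all CDR3 positions, Asn (-0.017), Leu (-0.839), Gln (0.044), Glu (0.339) and Phe (0.0702) turned and Met no longer passed, and with the 50 largest Phe (0.00452) turned. With the others weighted to V-J pairs, Leu (-0.085) and Gln (0.705) turned, and with length too, Leu (-0.033) and Gln (0.241). With no filter on rare segments 143 pairs passed. With edgeR, TRBV20 between days was 0.30, and with the 100 largest alone 0.042.

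TRBV30 in d105 PLX+PTX minus PTX gave 0 calls with a pseudocount of 0.5, no filter, the 100 largest alone, the 50 largest (0.32), days fitted separately, or the d105 libraries of the higher label numbers alone. For d95 all 3 agents minus PLX+PTX, 0 segments passed with days fitted separately and with the 50 largest, 11 with the 200 largest and 6 with the largest 1%, and d95 R minus NR gave 2 in both of the last. With the 50 largest, 8 segments passed between days. Single measures passed between groups in 0 cases without the paired libraries, after thinning, or in the higher label numbers alone, in 1 with the 50 largest, in 5 for the 100 largest alone and in 6 with the 200 largest. Of these, 3 and 4 were d105 minus d95. With the 200 largest they were sharing (9.76 points, permutation adjusted p = 0.00144), sharing through another form (8.21), length (-0.344 residues) and nucleotide forms (3.42), and for the 100 largest alone neighbours (14.6), neighbours at least 2 bases away (15.4) and nucleotide forms (5.02). MMTV-PyMT minus WTNT was -9.52 for sharing and -11.6 through another form without the paired libraries, -10.2 and -8.41 after thinning, -3.13 and -2.86 with the largest 1%, and -9.62 through another form with the 50 largest. Overlap was 2.16 at d105 with the 200 largest (permutation adjusted p = 0.0089), 7.71 and 2.28 at d105 and d95 with the largest 1%, and -0.14 at d95 with the 50 largest. The cause of these changes was not tested.

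Leaving out each library in turn gave 17 to 19 segments, 38 to 40 pairs and 14 to 15 residues. Differences were -1.02 to -0.981 residues in length, 27.8 to 28.99 points in sharing, 24.6 to 25.6 through another form, 17.1 to 18.0 with a neighbour, 22.7 to 23.6 with a neighbour at least 2 bases away and 6.04 to 6.57 for nucleotide forms. Calls were 0 in every case for d105 R minus NR, d105 all 3 agents minus PLX+PTX and MMTV-PyMT minus WTNT, 0 to 2 for d105 PLX+PTX minus PTX (2 without d95 PLX+PTX replicate 2), 0 to 12 for d95 all 3 agents minus PLX+PTX and 14 to 19 between days. For d95 R minus NR they were 0 to 4, with 4 without NR replicate 3 and 1 without PLX+PTX replicate 2, and for d95 PLX+PTX minus PTX 0 to 1, with 1 without PLX+PTX replicate 1 or 3. Of the single measures 1 to 2 passed, with sharing in MMTV-PyMT minus WTNT at -15.1 to -11.7 and sharing through another form at -12.7 to -9.99. The latter call was lost without d105 R replicate 2, 3 or 4, NR replicate 1 or 4, PLX+PTX replicate 4, 5 or 6, PTX replicate 1, or WTNT replicate 1, 3 or 5. Overlap differences were 0.269 to 1.23 at d105 and 0.137 to 1.12 at d95. No direction turned. No paired analysis was possible because the replicate numbers follow accession order and join no mice across groups. Depth at d95 and few mice per group limit what could be detected.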
